A study of Homo sapiens with 30 samples.

Results

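The run-on library labelled hNABP1 KO with NTP, repeat 3, has 9965 deposited peaks, and 5091 of them (51.1%, exact 95% interval 50.1 to 52.1) lie off the binding sites of hNABP2. A peak was placed off the sites when it overlapped no interval of either anti-hNABP2 ChIP-seq repeat of WT cells, 10055 intervals of repeat 1 and 2832 of repeat 2. The other 4874 run-on peaks touch an interval and are called on-site peaks here. Both sets were thus chosen from measured values, the peak call of the run-on library and the ChIP calls, and the height of a peak is a description of the set that carries no test. The cells are HT1080, a human fibrosarcoma line, at passages 10 to 15, grown without any treatment. The groups used are WT, hNABP2 KO and hNABP1 KO nuclei, each run on with NTP and without NTP in 3 repeats (18 libraries in all), plus the 2 anti-hNABP2 ChIP libraries of WT cells and 4 DRIP libraries without RNase H, 2 of WT and 2 of hNABP2 KO. Neither the kind of knockout nor whether a line is 1 clone is stated in the labels. The protocol in the labels speaks of 2 independent experiments where 3 repeats are listed, so error values below measure the spread between libraries.

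In a global run-on (GRO-seq) experiment, RNA polymerases engaged in isolated nuclei are allowed to run on with bromouridine, and an antibody recovers the RNA they made for sequencing. Reads heap up where many polymerases are engaged, above all just downstream of promoters, where polymerase II pauses, and upstream of them, where divergent antisense transcripts begin. Polymerases I and III, which make ribosomal RNA and small RNAs such as tRNA and 7SL, label as well. hNABP2, also called hSSB1, binds single-stranded DNA as part of the SOSS complex, in which hNABP1 (hSSB2) can take its place. Their partner INTS3 links both to Integrator, which cleaves and terminates nascent transcripts near promoters.

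The library stands apart from the other run-on libraries, which bears on every peak described here. The other 8 run-on libraries with NTP have 94 to 518 deposited peaks. WT repeat 3 holds 164357 gene counts, and the library labelled hNABP2 KO repeat 3 holds 115923 counts and 95 peaks, against 115528 counts and 9965 peaks here. Repeats 1 and 2 with NTP hold 5883 to 19581 gene counts each. The part that the peak calling, or any other property of the library, has in this number was not tested. The targeted gene NABP1 had 0, 1 and 18 counts in repeats 1 to 3 of the libraries labelled hNABP1 KO with NTP and 1, 0 and 19 in WT, so its counts do not separate the genotypes and the libraries are named by their labels. Of 8 mesenchymal marker genes, 8 had a count in this library, 165 counts in all with 100 at COL5A1 and 47 at VIM, while 2 of 6 leukocyte markers had 5 counts together. The other mesenchymal markers had 1 to 7 counts each. COL5A1 had 988 counts in hNABP1 KO repeat 3 without NTP, so reads at this gene were also counted without the run-on. In repeats 1 and 2 of hNABP1 KO it had 53 and 237 counts with NTP and 31 and 180 without. The 7 epithelial markers summed to 20 counts, 15 of them at KRT8 and KRT18, and 5 of 6 neural markers had 20 counts.

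To show what the strongest promoters off the sites look like, 6 sequences are printed, those of the highest-ranked peaks at a gene start by the deposited -log10 q that have at least 100 bases outside annotated genes before the start. Each runs 5′ to 3′ on the gene's strand up to the base before the start, from RefSeq (GRCh38.p14, the hg38 build of the files), shortened where a neighbouring gene begins. Capitals mark a match, on either strand, to TATAAA (the box bound by TBP), CCAAT (the NF-Y box), GGGCGG (the GC box of Sp factors), CGGAAG (the ETS core), CACGTG (the E-box) or TGACGT (the core of the CREB and ATF element). A match is a string of letters and not a shown binding site. HINFP, a zinc finger activator of histone H4 genes, is on chr11:119121330-119121579 (plus strand), LOC105372255, an uncharacterised gene, on chr19:6199525-6199774 (minus), and NMBR, the neuromedin B receptor gene, on chr6:142147123-142147262 (minus). SRRM1, a splicing coactivator, is on chr1:24643052-24643301 (plus), FMC1, a mitochondrial assembly factor, on chr7:139340222-139340471 (plus) and CRY1, a circadian clock repressor, on chr12:107093550-107093799 (minus).
HINFP: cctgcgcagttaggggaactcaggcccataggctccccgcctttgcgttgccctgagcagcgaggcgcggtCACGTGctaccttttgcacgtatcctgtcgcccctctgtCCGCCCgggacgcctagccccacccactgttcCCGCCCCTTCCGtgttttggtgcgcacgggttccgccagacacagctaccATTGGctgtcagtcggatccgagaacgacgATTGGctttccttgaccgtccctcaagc
LOC105372255: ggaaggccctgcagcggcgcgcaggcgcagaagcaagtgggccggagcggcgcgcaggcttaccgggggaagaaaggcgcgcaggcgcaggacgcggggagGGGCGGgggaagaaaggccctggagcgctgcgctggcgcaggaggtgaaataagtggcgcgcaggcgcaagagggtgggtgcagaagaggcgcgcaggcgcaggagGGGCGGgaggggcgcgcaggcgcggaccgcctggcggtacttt
NMBR: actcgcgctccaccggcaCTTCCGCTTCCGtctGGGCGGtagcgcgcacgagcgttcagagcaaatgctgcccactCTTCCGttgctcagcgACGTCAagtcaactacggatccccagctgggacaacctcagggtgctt
SRRM1: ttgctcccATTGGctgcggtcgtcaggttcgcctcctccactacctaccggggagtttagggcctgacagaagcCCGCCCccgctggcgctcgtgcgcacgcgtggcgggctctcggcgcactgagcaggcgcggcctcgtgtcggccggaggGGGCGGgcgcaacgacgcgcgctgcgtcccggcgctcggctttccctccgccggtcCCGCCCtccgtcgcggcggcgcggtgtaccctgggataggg
FMC1: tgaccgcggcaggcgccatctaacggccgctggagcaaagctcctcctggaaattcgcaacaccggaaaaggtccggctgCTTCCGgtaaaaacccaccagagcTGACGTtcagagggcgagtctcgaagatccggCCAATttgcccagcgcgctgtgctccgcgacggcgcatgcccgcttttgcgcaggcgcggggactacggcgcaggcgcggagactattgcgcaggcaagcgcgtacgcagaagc
CRY1: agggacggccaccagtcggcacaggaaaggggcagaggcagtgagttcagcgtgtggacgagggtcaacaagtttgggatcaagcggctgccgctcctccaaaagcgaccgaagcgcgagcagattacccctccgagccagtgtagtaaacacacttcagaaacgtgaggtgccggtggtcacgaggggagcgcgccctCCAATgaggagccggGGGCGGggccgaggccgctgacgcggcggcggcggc
The GC box is found in HINFP, LOC105372255, NMBR, SRRM1 and CRY1, 1 to 3 times each, and not in FMC1, which has 1 CCAAT, 1 ETS core and 1 TGACGT. In its 140 bases NMBR holds 3 ETS cores and 1 TGACGT. HINFP has 2 CCAAT boxes and the only E-box of the 6. No TATAAA lies in any of them. Their GC content runs from 62.1% (NMBR) to 74.4% (SRRM1).

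Promoters with an off-site peak were GC rich, though less so than those with an on-site peak. The 300 bases from 250 before to 50 after the start were searched for 1375 promoters nearest an off-site peak, 3654 nearest an on-site peak and all 35097 of the table. Median GC content was 64.3% off the sites (interquartile range 58.7 to 71), 71.3% on them (66 to 75.7) and 58.7% over all. The median number of CpG dinucleotides was 25, 34 and 14 in the same order. GGGCGG lay in 67.2% of the off-site promoters, 84.6% of the on-site promoters and 44.9% of all. For CGGAAG the shares were 27.1%, 31.6% and 19.5%. CCAAT stood at 39.6% off the sites, 35.1% on them and 34.6% over all, so the off-site promoters held it most often of the 3 sets. TATAAA was found in 4.29%, 3.28% and 11.5%. CACGTG reached 9.53%, 11.9% and 7.25%, and TGACGT 11.4%, 11.5% and 7.98%. Among the 296 off-site promoters at peaks of 10 or more reads, the shares were 76.4% for GGGCGG, 46.6% for CCAAT and 35.5% for CGGAAG, against 55.6%, 27.3% and 15.3% among the 216 at peaks of 2 reads. The motifs were searched separately, and promoters that share a divergent pair of starts overlap.

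Most off-site peaks were very low. The deposited fold and -log10 p of a peak together give the number of reads stacked at its summit (the pileup), searched among whole numbers. A whole number matched the deposited -log10 p within 0.005 for 5090 of the 5091 off-site and 4863 of the 4874 on-site peaks. The median pileup was 3 reads off the sites (interquartile range 2 to 4, highest 440) and 11 on them (7 to 21, highest 1104). Of the off-site peaks, 2241 (44.0%) rested on 2 reads and 1209 (23.8%) on 3, so that 67.8% had 2 or 3 reads, while 413 (8.11%) had 10 or more. On the sites, 1.07% of peaks rested on 2 reads and 58.9% had 10 or more. A pileup of 2 over the lowest background level, 0.0581 reads, gave a fold of 2.84 and a -log10 q of 1.42, and a pileup of 3 gave 3.78 and 3.06. That lowest background stood under 74.3% of the off-site and 16.1% of the on-site peaks. The authors' fold had a median of 3.78 off and 7.51 on the sites, and the peaks spanned a median of 245 and 414 bp.

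Read the other way, the share of run-on peaks lying off hNABP2 sites fell with height. Among the 2293 peaks of 2 reads, 97.7% (97.0 to 98.3) lay off the sites, and among the 1403 of 3 reads 86.2% (84.3 to 87.9). It was 41.2% (39.4 to 43.0) at 4 to 9 reads, 13.6% (12.0 to 15.2) at 10 to 19 and 11.4% (9.83 to 13.1) at 20 or more. With peaks of fewer than 4 reads left out, 1640 off-site peaks remain, and with a -log10 q of at least 3 there are 2533. These are exact binomial intervals over peaks of 1 library, which cover counting error only.

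**Figure D1:**
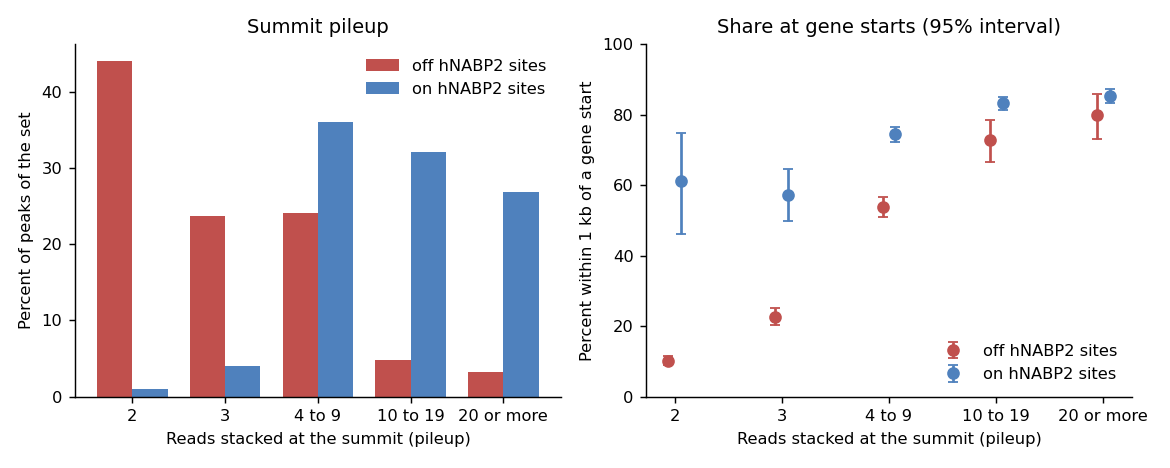
Left, percent of off-site (red) and on-site (blue) peaks by reads stacked at the summit. Right, percent of each class within 1 kb of a RefSeq gene start, with exact 95% intervals. Off-site peaks are mostly of 2 or 3 reads (67.8%), and their share at starts goes from 10.2% at 2 reads to 80.0% at 20 or more, where the on-site share is 85.3%.

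Gene starts held a minority of the off-site peaks. Of the 4830 on chromosomes with a start table, 1399 (29.0%, 27.7 to 30.3) had a gene start within 1 kb of the peak, 1884 (39.0%, 37.6 to 40.4) lay in a gene beyond that and 1547 (32.03%, 30.7 to 33.4) outside genes. On the sites, 3695 of 4662 (79.3%, 78.1 to 80.4) were at a start. The remaining off-site peaks are 222 on chromosome 8, for which no starts were used here, and 39 on the mitochondrial genome or on unplaced and alternate contigs. Height and position went together. The start share of off-site peaks was 10.2% (8.96 to 11.6) at 2 reads, 22.7% (20.3 to 25.3) at 3, 53.8% (50.8 to 56.7) at 4 to 9, 72.7% (66.5 to 78.4) at 10 to 19 and 80.0% (72.96 to 85.9) at 20 or more. The on-site shares were 61.2% (46.2 to 74.8), 57.3% (49.8 to 64.5), 74.4% (72.2 to 76.4), 83.2% (81.2 to 85.1) and 85.3% (83.2 to 87.2). The shares of the 2 sets were nearest at 20 or more reads. These intervals are over peaks of 1 library and cover counting error only, so they test no difference between the sets. Peaks of 2 or 3 reads made up 34.3% of the off-site peaks at starts, 81.2% of those in genes and 82.2% of those outside.

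At the starts, summits lay on both sides. The median summit was 16 bp upstream of the start (interquartile range 134 upstream to 144.5 downstream), and 53.3% of the 1399 were upstream. On-site summits were centred at 1 bp downstream, with 49.7% upstream. Within 250 bp downstream of the start lay 29.0% of the off-site and 42.7% of the on-site summits, and within 250 bp upstream 39.0% and 42.1%. Starts on both strands within 1 kb were found at 22.8% of the off-site peaks, 30.01% of the on-site peaks and 22.6% of all starts. The windows differ. For a peak the 1 kb runs from its edges, with median widths at starts of 303 bp off and 425 bp on the sites, and for a start from 1 base. The lists give no strand, so sense and upstream antisense transcription cannot be told apart.

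**Figure D2:**
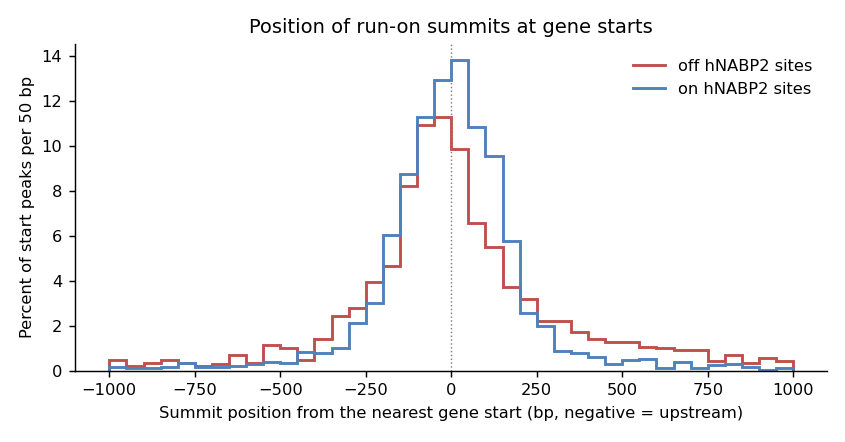
Position of the run-on summit from the nearest gene start, in 50-bp bins, as percent of the 1399 off-site (red) and 3695 on-site (blue) start peaks. Both gather around the start, and the on-site peaks hold more of their summits within 250 bp downstream (42.7% against 29.0%).

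Gene starts held 8 of the 10 strongest off-site peaks, and a tRNA gene and an intergenic site the others. The peak of highest -log10 q on chromosomes 1 to 22, X and Y, at chr9:6681036-6681720, lay outside RefSeq genes, with 151 reads at the summit and a fold of 72.8. At HINFP the peak (chr11:119121231-119121578) had 90 reads and a fold of 85.1, with its summit 168 bp upstream of the start. LOC105372255 followed with 111 reads (fold 86.3, summit 129 bp upstream). The peak over BTD, the biotin-recycling enzyme gene, and HACL1, a peroxisomal lyase gene beside it, had 114 reads and a fold of 76.8 with its summit 37 bp inside BTD. NMBR and its neighbour VTA1, an endosomal sorting gene, shared a peak of 67 reads (fold 56.7). SRRM1 had 83 reads (fold 46.8, summit 240 bp upstream) and PNPLA8, a phospholipase gene, 50 reads (fold 48.2, summit 126 bp upstream). Completing the 10 are the tRNA gene TRW-CCA4-1 inside LINC02453 (47 reads), the pair of FXR2, an RNA-binding relative of the fragile X protein, and SHBG (54 reads), and the pair of FMC1 and LUC7L2, a U1 snRNP factor (44 reads). None of these 10 was overlapped by a peak of another run-on library with NTP. The mitochondrial genome has 2 off-site peaks, whose highest values were 440 reads, a fold of 4.23 and a -log10 q of 405, above that of the 10.

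Gene counts at the same genes show how the peaks relate to transcripts counted within gene bounds. In repeats 1 to 3 with NTP, BTD had 4, 4 and 98 counts in the libraries labelled hNABP1 KO, 3, 3 and 23 in WT and 10, 1 and 27 in those labelled hNABP2 KO. HACL1 had 1, 0 and 97 in hNABP1 KO, 1, 1 and 21 in WT and 0, 0 and 17 in hNABP2 KO. In repeat 3 both genes were highest in the library that gave the peaks, while in repeats 1 and 2 the genotypes overlapped. VTA1 had 57 counts in hNABP1 KO repeat 3, 11 in WT and 8 in hNABP2 KO, with 0 in the 6 libraries of repeats 1 and 2. SRRM1 stood at 44, 10 and 13 in repeat 3, in the same order of genotypes. HINFP, whose summit lies before its start, had 6 counts in hNABP1 KO repeat 3 and 10 in each of WT and hNABP2 KO. NMBR had 0, 3 and 2 counts, FXR2 5, 18 and 8, and PNPLA8 26, 24 and 8. So in repeat 3 the source library had the highest raw counts at BTD, HACL1, VTA1, SRRM1 and LUC7L2 (60, 25 and 7) and, narrowly, PNPLA8. It did not at HINFP, NMBR, FXR2 or SHBG (0, 3 and 4). Reads of that library also make the peaks, and the counts are not scaled to the library totals. In repeats 1 and 2, SRRM1 had 0 and 0 counts in hNABP1 KO and 1 and 0 in WT, and LUC7L2 had 2 and 1 against 0 and 0. BTD and HACL1 overlap at their starts, and no source used here states how strand entered the counting, so reads of the 2 genes may have been counted for both.

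**Figure D3:**
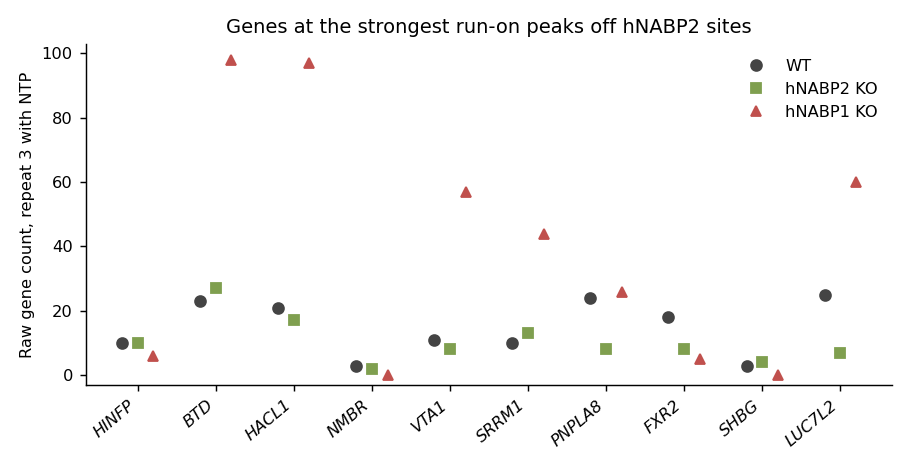
Raw gene counts in repeat 3 with NTP for the genes at the strongest off-site peaks, in WT (circles), hNABP2 KO (squares) and hNABP1 KO (triangles). BTD, HACL1, VTA1, SRRM1 and LUC7L2 are highest in hNABP1 KO (44 to 98 counts), the library that gave the peaks. HINFP, NMBR, FXR2 and SHBG are lowest there (0 to 6).

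Further down the ranking of start peaks stood CRY1 (65 reads, fold 42.7, summit 333 bp upstream), and EEPD1, a nuclease-domain protein of fork repair (42 reads, fold 40.6). KDM4C, a histone H3 demethylase, had a pileup of 86 at a fold of 23.4, and SMG9, of nonsense-mediated decay, 97 at 18.3. CDC25C, the mitotic phosphatase, had 32 reads (fold 31.2) and was also touched by a DRIP peak. These genes were picked from the ranked list after their values were seen.

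Inside genes, beyond 1 kb of a start, the leading peaks were at TRW-CCA4-1, at the 45S ribosomal RNA gene RNA45SN2 with RNA28SN2 (366 reads over a background of 104, fold 3.50), in LOC101927263 (41 reads, fold 35.0), in EML6 (30 reads, fold 28.2) and in PRKCZ, an atypical protein kinase C gene (27 reads, fold 26.5). Outside genes, chr19:35931416-35931816 had 52 reads (fold 44.2), chr16:3003837-3004572 29 (fold 28.4), chr14:58199870-58200123 32 (fold 27.5) and chr16:46390252-46390808 34 (fold 16.8). The genes with the most off-site peaks were long. PTPRN2, a secretory granule phosphatase relative of 1049 kb, carried 9, all of 4 reads or fewer, with 4 of them at 2 reads. GNG7, a G protein subunit, GPHN (gephyrin, the inhibitory synapse scaffold), KALRN, a kinase-domain protein of synapses, and PPARGC1A, the PGC-1alpha coactivator, carried 5 each over 191, 1227, 693 and 681 kb. Their highest pileups were 9, 11, 3 and 10 reads. These numbers take in peaks within 1 kb of a gene start, 2 in GPHN and 1 in PPARGC1A, and GPHN also carried 3 on-site peaks. RALGPS1, RAP1GAP2 and SEMA5B also carried 5, and the order among genes with the same number is alphabetical.

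Small RNA genes of polymerase III were among the off-site peaks. Of 465 tRNA genes, 27 (5.81%) were touched by 25 off-site peaks and 18 (3.87%) by 16 on-site peaks. After TRW-CCA4-1 came the asparagine tRNA genes TRN-GTT7-1 (15 reads, fold 15.1) and TRN-GTT1-1 (13 reads, fold 13.2) and the leucine gene TRL-CAG2-2 (15 reads, fold 13.3). Of 156 snRNA and 1199 snoRNA genes, 0 were touched off the sites, against 1 snRNA and 0 snoRNA genes on them. Off-site peaks touched 5 of 1913 miRNA genes, led by MIR639 inside the TECR and DNAJB1 peak, and on-site peaks 28. lncRNA genes met 870 off-site peaks (17.1%) and 966 on-site peaks (19.8%), and protein-coding genes 2558 (50.2%) and 4079 (83.7%).

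Few off-site peaks were called again in another run-on library. A peak of at least 1 of the other 8 lists with NTP overlapped 80 of the 5091 (1.57%), against 418 of the 4874 on-site peaks (8.58%). By height, the off-site shares were 0.223% at 2 reads, 0.910% at 3, 3.26% at 4 to 9 and 5.57% at 10 or more. The on-site shares were 0% of 52, 6.19%, 8.05% and 9.07%. Looked at from the other lists, 26 of the peaks of WT repeat 3 (9.85%) lay on off-site peaks and 178 (67.4%) on on-site peaks. In WT repeats 1 and 2, 2.13% and 2.05% of the peaks lay on off-site peaks and 20.2% and 14.4% on on-site peaks. Repeats 1 and 2 of hNABP1 KO, of the same label as the source library, had 18 of 518 (3.47%) and 6 of 431 (1.39%) on off-site peaks and 13.9% and 12.1% on on-site peaks. In hNABP2 KO repeats 1 to 3, 3.70%, 3.85% and 13.7% lay on off-site peaks and 13.99%, 16.6% and 22.1% on on-site peaks. The lists are short, so an off-site peak missing from them need not be absent there.

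The off-site peaks found in most lists were at structural RNAs. A peak at RN7SL1, the 7SL RNA of the signal recognition particle (chr14:49586595-49586854, 138 reads, fold 3.08), was overlapped in 6 of 8 other libraries: WT repeat 1, hNABP2 KO repeats 1, 2 and 3, and hNABP1 KO repeats 1 and 2. RN7SL2, its near copy (chr14:49862566-49862835, 105 reads, fold 2.96), and the 45S ribosomal RNA gene (chr21:8214621-8214847) were overlapped in 4 each. The gene counts of RN7SL1 with NTP were 11, 1 and 13 in hNABP1 KO, 13, 0 and 7 in WT and 54, 1 and 3 in hNABP2 KO, and without NTP 1, 1 and 1, 22, 1 and 0, and 5, 0 and 0. Reads of RN7SL1 and RN7SL2, or of ribosomal RNA copies, may be placed on either copy, so neither gene's share is certain. RARS2, the mitochondrial arginyl-tRNA synthetase gene that faces ORC3 (28 reads, fold 27.4), was overlapped in hNABP1 KO repeat 2 alone among the 8. DRIP-seq, which pulls down RNA:DNA hybrids, touched 25 off-site and 35 on-site peaks. The list of hNABP2 KO repeat 2 (167 peaks) overlapped 21 of the 25 and that of hNABP2 KO repeat 1 (13 peaks) 0. The WT lists (173 and 107 peaks) overlapped 3 and 2. Of the 35 on-site peaks, the list of hNABP2 KO repeat 2 overlapped 30.

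Most off-site peaks lay far from hNABP2 binding, and a few lay right beside it. The median gap to the nearest ChIP interval was 66279 bp. The gap was at most 100 bp for 97 peaks, between that and 1000 bp for 265, up to 10000 bp for 412, up to 100000 bp for 2287 and more for 2003, and 27 lay on a contig without a ChIP interval. The 97 nearest had a median fold of 5.27 and 85.7% of those with a start table were at a start, and the on-site peaks with an overlap of at most 100 bp had a median fold of 5.25. Just outside the rule lay the peak at MAP1LC3B, the autophagy gene LC3B, 2 bp from a ChIP interval with 5 reads (fold 5.09). Next were the peak in OXR1, an oxidation resistance gene, 5 bp away with 4 reads (fold 4.17), those at RABGAP1L-DT with 17 reads (fold 12.9) and CCDC127 with 10 reads (fold 9.83), and chr3:123884365-123884612 with 13 reads (fold 6.503), each 6 bp away. Just inside it, ABCD3, a peroxisomal transporter (68 reads, fold 33.0), MCF2L2 (5 reads, fold 5.67) and PHF2, a histone demethylase (5 reads, fold 4.81), overlapped by 2 bp, and DRC3 (6 reads, fold 6.37) and the peak in C22orf46P and SNU13 (5 reads, fold 4.29) by 3 bp. Of the 10 strongest peaks, SRRM1 was 73 bp and FMC1 654 bp from a ChIP interval, and the others 11196 to 173649 bp. Among further named peaks, that of CRY1, whose promoter is printed above, was 66 bp away. EML6 was 757 bp and the 45S ribosomal RNA gene 1165 bp from a ChIP interval, while KDM4C was 112146 bp and EEPD1 213444 bp away. The table of ChIP repeat 1 lacks 13 of the 10068 peaks of that library, and 5 off-site peaks lie on their summits.

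The genes with an off-site peak at the start numbered 1710 of 27305 in the start table (6.26%), and those with an on-site peak 4767 (17.5%), with 138 in both. The gene lists are read against these percentages, and each describes only which genes carry a peak. Of 12 SOSS and Integrator genes in the table, 3 had an off-site peak, all for Integrator subunits, INTS7 (46 reads, fold 16.9), INTS4 of the cleavage module (15 reads, fold 10.0) and INTS2 (6 reads, fold 4.53), and 4 had an on-site peak. The gene counts of INTS7 in repeat 3 with NTP were 49 in hNABP1 KO, 8 in WT and 1 in hNABP2 KO. In the same order INTS4 had 3, 6 and 7 counts and INTS2 had 5, 13 and 3. The hNABP1 KO library of repeat 3 also gave the peaks, and INTS7 had 0 counts in every library of repeats 1 and 2 with NTP. Of 21 pausing and elongation genes, LARP7 (39 reads, fold 22.3) and MEPCE (49 reads, fold 15.7) had one, both partners of the 7SK RNA that holds back P-TEFb, and MEPCE has an on-site peak as well. An on-site peak lay at 10 of the 21. S-phase genes had 3 of 20, POLA1, the catalytic subunit of primase-polymerase alpha (35 reads, fold 23.3), CCNE1, cyclin E1 (16 reads, fold 13.1), and CDC6, the origin licensing factor (21 reads, fold 10.5), while 13 of the 20 had an on-site peak.

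The remaining lists held 2 or fewer. Splicing factors had 2 of 24, U2AF2 (37 reads, fold 14.7) and SRSF6 (10 reads, fold 3.07), each beside an on-site peak, and 9 of the 24 had an on-site peak. Immediate early genes had 2 of 19, FOSB (8 reads, fold 8.49) and EGR2 (3 reads, fold 3.78), with 9 on-site. DDIT3, the stress factor CHOP, was the 1 of 21 unfolded protein response genes (11 reads, fold 8.02, with 10 on-site). DNAJB1 was the 1 of 18 chaperones (45 reads, fold 29.8, at the shared start with TECR, with 7 on-site), and it has an on-site peak as well. SNHG29 was the 1 of 14 snoRNA hosts (24 reads, fold 6.61, with 4 on-site). RBFOX3, a neuronal marker, had a peak of 2 reads, the only 1 of 4 neural genes, of which 0 had an on-site peak. No off-site peak lay at the start of the genes in the table for cholesterol synthesis (0 of 13, with 9 on-site), glycolysis and hypoxia (0 of 22, with 11), p53 targets (0 of 14, with 6), cytoskeleton (0 of 24, with 8), extracellular matrix (0 of 20, with 4), cytosolic ribosomal proteins (0 of 19, with 2), nuclear lncRNA (0 of 8, with 3) or mesenchymal markers (0 of 7, with 1). For replication-dependent histone genes both numbers were 0 of 15.

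In libraries that did not choose the peaks, genes with an off-site peak at the start had intermediate counts. In WT repeat 3 with NTP, the median gene count was 7 (interquartile range 4 to 11) for 1284 genes with only off-site peaks at the start, 11 (7 to 16) for 3887 with only on-site peaks and 4 (1 to 8) for 11984 with neither. Per kb of gene these were 1.24, 1.87 and 0.762 CPM, the count scaled to the library total. In hNABP2 KO repeat 3 the medians were 5, 8 and 3 counts, and in the source library 4, 7 and 1. A count of at least 1 in WT repeat 3 was found for 96.5%, 98.5% and 81.04% of the genes. By height of the off-site peak, WT counts had a median of 4 at 2 reads (152 genes), 5 at 3 reads (193), 7 at 4 to 9 (546) and 8 at 10 or more (316). The matching on-site medians were 9 (21 genes), 7 (83), 10 (1180) and 13 (2328).

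The next comparison asks whether genes carrying off-site peaks take more of the transcription in hNABP1 KO than in WT when the library that chose them is left aside. The 2798 genes with an off-site peak at the start or in the body held 10.2% and 8.12% of the gene counts in hNABP1 KO repeats 1 and 2 with NTP and 10.3% and 7.63% in WT. The groups overlap, and within the pairs of repeats 1 and 2 the difference was -0.0514 and 0.484 percentage points. The mean difference, hNABP1 KO minus WT, was 0.216 percentage points, with p = 1 in an exact permutation test (two-sided, n = 2 against 2, where no p under 0.333 is possible). In repeat 3 the shares were 13.1% in hNABP1 KO, 13.95% in WT and 14.03% in hNABP2 KO, so the source library was the lowest of the 3. For the 1405 genes with an off-site peak at the start alone, the shares in repeats 1, 2 and 3 were 5.68%, 3.96% and 7.63% in hNABP1 KO and 5.51%, 3.43% and 7.17% in WT. Here hNABP1 KO was above WT by 0.172 and 0.525 percentage points in repeats 1 and 2. In repeat 3 it was above WT by 0.464 and the highest of the 3, with hNABP2 KO at 7.23%. The hNABP1 KO library of repeat 3 chose these genes, so its difference and rank are only a description. The mean difference over repeats 1 and 2 was then 0.348, with p = 0.667 in the same unpaired exact permutation test. Over 3 repeats the share of the 2798 genes was 10.5% ± 2.48 in hNABP1 KO, 10.6% ± 3.17 in WT and 11.3% ± 2.47 in hNABP2 KO with NTP (SD, n = 3 each). Without NTP it was 7.79% ± 0.446, 8.79% ± 2.19 and 10.2% ± 2.92. Repeat 3 was the highest of the 3 repeats in each of the 6 groups. With ribosomal RNA genes left out of the total the difference in repeats 1 and 2 turned to -0.305, and with genes that also carry an on-site peak left out it was -0.000217, so for the 2798 genes the direction changes with the choice of genes and of the total.

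**Figure D4:**
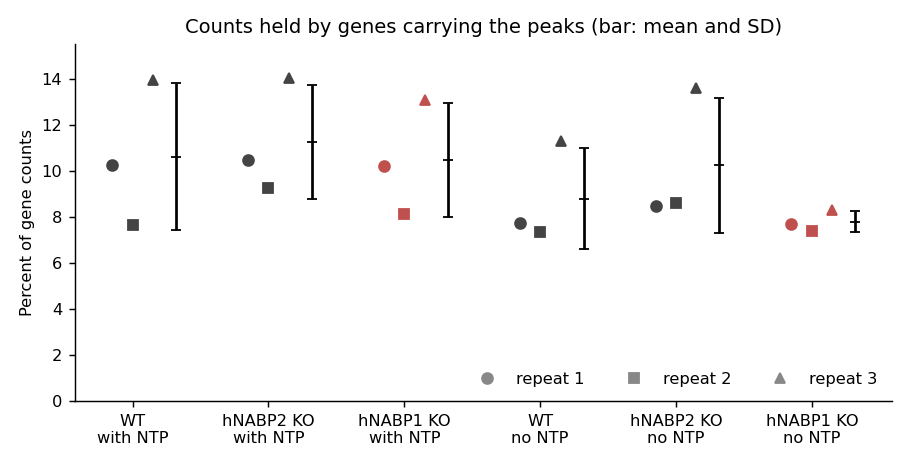
Percent of gene counts held by the 2798 genes that carry off-site peaks, for each of 18 run-on libraries (circle, square and triangle for repeats 1, 2 and 3), with the mean and SD of each group. The hNABP1 KO libraries with NTP (8.12 to 13.1%) lie within the range of the WT libraries with NTP (7.63 to 13.95%).

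Tested gene by gene without the pairing of repeats, no gene with an off-site peak passed for hNABP1 KO against WT with NTP. Of 129 genes with enough counts for edgeR's quasi-likelihood test, 0 passed (0.0%) and 1 had an unadjusted p under 0.05. By DESeq2 0 passed too, with 2 at an unadjusted p under 0.05. With the repeat number as a block, edgeR again passed 0 of the 129. Only 13 of the 129 carry an off-site peak, 7 with a higher and 6 with a lower value, at a median log2 fold change of 0.07 against 0.10 over all 129. RN7SL1, the 7SL RNA, stood at 0.41 (SE 1.45, adjusted p = 1.00 by edgeR), FADS2, a fatty acid desaturase, at -1.10 (SE 0.644) and GAPDHS, the sperm form of the glycolytic enzyme GAPDH, at 0.69 (SE 0.735). With a lower filter of 10 counts over the libraries and the repeat number as a block, 16 of 13447 genes passed (0.119%), all higher in hNABP1 KO. Of these, 1 carries an off-site peak, ELP6, a subunit of Elongator (chr3:47513451-47513868, 47 reads, fold 26.7, adjusted p = 0.0429 by edgeR, log2 fold change 4.48, SE 1.07), while 9 of the 16 have only on-site peaks at the start. Of the 13447 genes, 1021 have only off-site and 3638 only on-site peaks at the start. ELP6 had 0, 0 and 41 counts in hNABP1 KO, 0, 0 and 3 in WT and 0, 0 and 8 in hNABP2 KO, so that its call rests on repeat 3 alone, the library in which its peak was found.

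The other comparison, with against without NTP in hNABP1 KO, asks which genes gain counts from transcript extension. Of 211 genes tested by edgeR without the pairing of repeats 0 passed (0.0%) and 6 had an unadjusted p under 0.05. By DESeq2 0 passed, with 7 at an unadjusted p under 0.05. The 19 that carry an off-site peak had a median log2 fold change of 0.41 against 0.12 over the 211, with 17 and 115 above 0. The library that chose these genes is 1 of those with NTP here, so the higher median is not independent of the choice. The repeat numbers pair the libraries, and with the repeat as a block 5 genes rose (2.37%): TIPARP-AS1, AHNAK, LONP1, ACTB and EIF4B. EIF4B, a translation initiation factor gene, is the 1 with an off-site peak (chr12:53006128-53006420, 20 reads, fold 10.0, summit 102 bp upstream). Its counts were 14, 0 and 18 with NTP and 2, 0 and 0 without, and its log2 fold change was 4.17 (SE 1.08, adjusted p = 0.0490 by edgeR with the block, 0.982 without it). In WT it had 7, 0 and 14 counts with NTP and 13, 0 and 1 without, where the groups overlap. RN7SL1 missed the threshold in the same fit, at an adjusted p of 0.0730 by edgeR and a log2 value of 3.36 (SE 1.04). With the block and the lower filter of 10 counts, 1 of 14907 genes passed (0.00671%), GRPR, which has no off-site peak. hNABP1 KO repeat 3 with NTP is part of the fits of both comparisons and also gave the peaks. So neither a call nor a median of genes with an off-site peak is independent of the choice of the peak. ELP6 and EIF4B were named after their values were seen.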

How the data were processed

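GRO-seq, ChIP-seq and DRIP-seq libraries of HT1080 cells were used as deposited. The submitters' processing notes name the hg38 build and the tools MACS2 2.2.1, SAMtools, Bowtie2 2.3.5 and cutadapt 1.18. Their settings, the peak controls and the strand used in counting are not given in the sources used. The deposited table holds raw counts per gene, not normalized by the authors, for 18 run-on libraries. In the deposited peak lists, which have the MACS2 layout, each peak has the authors' fold (a ratio of summit over local background), -log10 p and -log10 q, and a score of 10 times the -log10 q. Peaks called per library were compared at 1 bp of overlap. Summit pileups were solved from fold and -log10 p, as (pileup + 1)/(background + 1) and a Poisson tail. Starts come from the RefSeq promoter table (GRCh38.p14, 35116 starts of 27305 genes). Of 26475 rows of the count table, 25243 matched a RefSeq symbol or a unique synonym, and 4 rows share a repeated name. Intervals of shares are 95% Clopper-Pearson. Genes were tested with edgeR 4.0.16 (quasi-likelihood, filterByExpr, TMM, Benjamini-Hochberg, threshold 0.05) in R 4.3.3, the genotypes over the 9 libraries with NTP and the NTP effect over all 18, with DESeq2 1.42.0 beside it, after the code was tested on simulated data. Depth is 5272 to 164357 gene counts per library.

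With group means removed, correlations were 0.563 to 0.843 for the 9 pairs of libraries with the same repeat number. They were -0.690 to 0.119 for other pairs, so the repeat numbers pair the libraries. The main result is the planned fit without the block, which leaves this pairing out. Fits with the block are given beside it. Named peaks are the 10 of highest -log10 q on chromosomes 1 to 22, X and Y, the 5 highest at starts, in genes and outside, the 10 in most other lists, the 5 genes with most peaks, the 5 nearest the rule on either side, and list genes with a peak at the start; further genes are said to be chosen afterwards. The peaks and gene lists were chosen with earlier results of these data known.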

Additional observations from a re-analysis of the deposited data

How the results depend on the processing

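The number of off-site peaks, 5091, stayed between 4729 and 6039 under other overlap rules (50% of the peak covered, ChIP intervals extended by 1 kb, summits of ChIP repeat 1, missing ChIP summits added), and fell to 2533 with a -log10 q of at least 3 and 1640 with at least 4 reads, the latter chosen after seeing the data. The share at a start, 29.0%, was 34.3% within 3 kb, 26.1% within 0.5 kb, 41.5% with a -log10 q of at least 3, and, chosen after seeing the data, 59.3% with at least 4 reads and 36.8% within 1 kb of either gene end. The share found in another list, 1.57%, was 0.864% with 50% of the peak covered, 2.45% with a -log10 q of at least 3 and 3.84% with at least 4 reads (added). The difference in count share, 0.216 points, was 0.348 with start genes only, -0.305 without ribosomal RNA genes, -0.000217 without genes that carry an on-site peak, and ranged from -0.0514 to 0.484 when repeat 2 or 1 was left out; the cause was not tested. The replicate block moved the number of genes changed by NTP from 0 to 5, and with at least 10 counts it gave 1 (GRPR, lower) there and 16 between genotypes (both added); it changed no other call. Without any single library edgeR called 0 genes in both comparisons. Repeats 1 and 2 hold at most 19581 counts, which limits tests to the 129 and 211 genes.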

Other observations

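Chromosome X carried 98 of the off-site peaks (1.92%) and 59 of the on-site peaks (1.21%), chromosome 3 389 (7.64%) and 304 (6.24%), and chromosome 16 189 (3.71%) and 251 (5.15%). Unplaced, alternate and mitochondrial sequences carried 39 off-site (0.766%) and 9 on-site peaks (0.185%), and pseudogenes met 56 (1.10%) and 29 (0.595%).

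The genes with an off-site peak at the start held 7.63% of the gene counts of the source library and 3.64% in hNABP1 KO repeat 3 without NTP. In WT repeat 3 these shares were 7.17% with and 5.77% without NTP, and in hNABP2 KO repeat 3 7.23% and 6.92%. Genes with only on-site peaks at the start held 40.6% with and 18.7% without NTP in hNABP1 KO repeat 3. In WT repeat 3 they held 29.5% and 24.3%, and in hNABP2 KO repeat 3 28.3% and 29.3%. Each is the value of 1 library, the source library also chose the genes, and the differences were not tested.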
